A study of Mus musculus with 96 samples.

Results

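The nuclear genes that encode subunits of the mitochondrial respiratory chain and of ATP synthase were followed in mouse ventricle across the day. Members were the genes whose symbols name a subunit of complex I (Nduf), II (Sdh), III (Uqcr, Cyc1), IV (Cox4 to Cox8) or V (Atp5), or cytochrome c (Cycs), without pseudogene names, with a mean of at least 1 CPM (counts scaled to the library total) over all 96 libraries. The rule matched 98 genes. It left out 8 with pseudogene names and 3 under 1 CPM, so 87 of the 55376 genes in the table were members: 37 of complex I, 4 of complex II, 9 of complex III, 19 of complex IV, 17 of complex V and Cycs. Despite their symbols, Ndufa4 and Ndufa4l2 were counted with complex IV. The least abundant member, Cox6b2, averaged 2.06 CPM, and the most abundant gene left out for its level, Cox7b2, averaged 0.164 CPM. All 87 members reached the test.

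The mice carried an inducible, cardiomyocyte-specific knockout of Bmal1 (Arntl), the activating subunit of the circadian clock. Every library has the same genotype label, iCSBmal1 KO, and the groups differ in treatment and sex: tamoxifen females, tamoxifen males, vehicle females and vehicle males. Tamoxifen is the drug that switches on such an inducible deletion. Each of the 4 groups holds 24 libraries, 2 at each of 12 circadian times from ct 18 to ct 62 in steps of 4 h. The vehicle groups thus share the genotype label and differ by the drug, so an effect of tamoxifen itself and one of the lost gene cannot be told apart. The labels do not name the driver of the recombinase or the age of the mice. No label tells whether each library is its own animal, and p-values measure the spread between libraries. In whole ventricle, fewer cardiomyocytes and less RNA per cardiomyocyte cannot be told apart.

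Complex I takes electrons from NADH and complex II takes them from succinate. Complex III passes them through cytochrome c to complex IV, which reduces oxygen, and complex V uses the proton gradient that complexes I, III and IV build to make ATP. The heart depends on this chain for almost all of its ATP, and its mitochondria hold muscle forms of several complex IV subunits. Most subunits are nuclear-encoded small proteins whose transcripts are short and abundant, and a few core subunits are encoded by mitochondrial DNA. Transcription of the nuclear genes is driven by factors such as NRF1, GABP (an ETS factor), YY1 and the oestrogen-related receptors (ERR), with the coactivator PGC-1.

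Library totals ran from 8944955 to 20596194 counts, and the members held a median of 4.19% of the counts in tamoxifen females, 4.16% in tamoxifen males, 3.798% in vehicle females and 4.73% in vehicle males. Cardiomyocyte markers (Myh6, Tnnt2, Actc1, Ryr2, Myl2 and Tnni3) summed to medians between 35040 and 36090 CPM in the 4 groups, and all 6 were detected. Endothelial markers summed to medians of 819.9 CPM in tamoxifen females and 917 CPM in tamoxifen males, against 921 CPM in vehicle females and 1129 CPM in vehicle males, and erythroid markers to 619 and 554.9 CPM, against 513.9 and 902 CPM in the same groups. In the same order of groups, fibroblast markers summed to medians of 1273 and 994.6 CPM with tamoxifen, against 1052 and 1118 CPM with vehicle, and mural cell markers to 1036 and 1101 CPM, against 1137 and 1270 CPM. Macrophage markers summed to 123.1 and 130.5 CPM with tamoxifen, against 153.3 and 138.8 CPM with vehicle, adipocyte markers to 39.57 and 39.95 CPM, against 29.65 and 39.26 CPM, and skeletal muscle markers to 1713 and 1819 CPM, against 1705 and 2132 CPM, with 1 of the 5 at 0 in every library of both female groups. Mitochondrially encoded genes held a median of 7.22% and 7.389% of the counts with tamoxifen, against 7.212% and 8.37% with vehicle, and the median library total was 15526020 and 15867851 counts, against 16446379 and 12956953. The part of these differences in the results was not tested. Arntl itself ran from 2.85 to 28.3 CPM in tamoxifen females and from 1.31 to 31.7 CPM in tamoxifen males, against 0.992 to 56.3 CPM in vehicle females and 1.27 to 48.3 CPM in vehicle males. The Arntl medians were 16.2 and 13.2 CPM with tamoxifen, against 13.8 and 14.2 CPM with vehicle (females, then males). Counts are per gene, so reads from exons that a recombined allele may keep cannot be told apart from others. Some libraries stood apart. In 5 tamoxifen libraries Arntl was under 6 CPM, while the other tamoxifen library of the same sex and time held 9.04 to 17.8 CPM. At ct 58 in females the level was 2.85 CPM, against 2.20 and 1.11 CPM in the vehicle libraries of that time. The male library of ct 34 held 5.17 CPM, against 1.46 and 1.64 CPM with vehicle, that of ct 38 held 2.96 CPM, against 1.27 and 3.16 CPM, and that of ct 58 held 4.83 CPM, against 6.30 and 2.77 CPM. At ct 54 in males it was 1.31 CPM, against 25.3 and 19.2 CPM with vehicle, so only that library lay below both vehicle libraries of its sex and time. Another library, labelled tamoxifen female at ct 54, went against its label: Xist was at 0.272 CPM, where the other tamoxifen female libraries held 194.1 to 409.7 CPM, and the Y-linked gene Ddx3y was at 11.3 CPM, below every male library (121.7 to 202.6 CPM). It matched the other libraries of neither sex, and was kept under its label except where these 6 libraries are left out together. Atrial Myl7 was above 20 CPM in 13 libraries, 1 of them from tamoxifen females and 2 from tamoxifen males, against 7 from vehicle females and 3 from vehicle males. In 10 vehicle male libraries, the share of counts on gene models of the annotation's TEC class, which awaits experimental checks, exceeded 0.111%, the highest share in the other 3 groups. The title numbers of vehicle males, vehicle females and tamoxifen animals fall in separate ranges, so treatment and, among vehicle animals, sex cannot be told apart from anything else that follows those numbers.

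Promoter sequence was available from RefSeq for 67 of the 87 members, in 72 windows of 250 bases before to 50 after a start site. In all, 6 motifs were searched on both strands. The NRF1 motif, GCGC and TGCGC with 1 base between them, occurred in 18 of the 72 member windows, against 4.6% of all 32851 windows, the ETS motif CCGGAAG in 23.6% against 8.86%, the YY1 motif AAGATGGCG in 9.72% against 1.4%, and the ERR half-site AAGGTCA in 11.1% against 4.72%. The E-box CACGTG, the motif that the Bmal1 protein binds with Clock, occurred in 8.33% of member windows and in 7.15% of all windows, and the D-box TTATGNAA in 2.78% and 3.38%. The ETS and YY1 letters can share the bases AAG, and a match is a description of the letters only. The E-box was found in 5 members: Atp5g1, Atp5g3, Atp5l, Ndufa7 and Ndufv1. The windows of 4 members that recur below are printed 5′ to 3′, with motif matches on either strand in capitals (RefSeq, GRCm38.p6). Cox6b2 (chr7:4753045-4753344, minus strand) had the largest change and none of the 6 motifs. Atp5g3 (chr2:73911277-73911576, minus strand) holds an E-box, an ERR half-site and an NRF1 motif. Ndufs6 and Sdha (chr13:73328433-73328732 and chr13:74350191-74350490, both minus strand) moved in opposite directions in males.
Cox6b2: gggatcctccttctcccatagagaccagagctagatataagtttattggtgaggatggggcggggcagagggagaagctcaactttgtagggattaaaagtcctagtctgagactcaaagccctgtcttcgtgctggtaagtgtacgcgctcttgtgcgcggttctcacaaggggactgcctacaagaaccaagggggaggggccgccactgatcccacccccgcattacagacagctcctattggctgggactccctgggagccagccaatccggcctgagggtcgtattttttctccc
Atp5g3: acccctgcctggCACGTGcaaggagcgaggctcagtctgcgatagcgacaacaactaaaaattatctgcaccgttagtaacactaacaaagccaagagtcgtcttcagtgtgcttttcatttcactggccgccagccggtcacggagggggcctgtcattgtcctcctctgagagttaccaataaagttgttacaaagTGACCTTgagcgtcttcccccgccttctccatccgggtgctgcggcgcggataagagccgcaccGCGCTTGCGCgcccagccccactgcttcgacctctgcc
Ndufs6: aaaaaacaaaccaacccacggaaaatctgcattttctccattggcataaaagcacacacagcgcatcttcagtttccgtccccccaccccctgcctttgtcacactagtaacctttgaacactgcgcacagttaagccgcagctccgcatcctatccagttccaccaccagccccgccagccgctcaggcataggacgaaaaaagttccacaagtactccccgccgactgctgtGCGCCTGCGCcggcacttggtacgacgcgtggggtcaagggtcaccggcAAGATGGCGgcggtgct
Sdha: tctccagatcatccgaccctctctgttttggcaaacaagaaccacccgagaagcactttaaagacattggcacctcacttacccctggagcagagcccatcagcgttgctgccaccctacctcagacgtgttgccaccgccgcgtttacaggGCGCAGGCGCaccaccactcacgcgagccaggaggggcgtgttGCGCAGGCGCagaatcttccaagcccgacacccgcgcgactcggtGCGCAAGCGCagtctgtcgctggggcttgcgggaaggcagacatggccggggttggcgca

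Measured per length, as mean CPM per kilobase of transcript over all libraries, the complexes lay in one range. The median member stood at 288 CPM per kb in complex I, 510.8 in complex II, 618 in complex III, 432.6 in complex IV and 577 in complex V, and Cycs at 168. The catalytic beta subunit of ATP synthase, Atp5b, was the highest at 2140 CPM per kb. It was followed by Atp5g3, which encodes the membrane c-ring subunit, at 1575, by Cox4i1 at 1464 and by the alpha subunit Atp5a1 at 1349. At the low end were Ndufb2 at 1.78, Cox6b2 at 3.53, Cox6c2 at 12.8, Cox4i2 at 13.5, Ndufb4c at 13.9 and Ndufs6b at 14.9 CPM per kb. Cox6c2, Ndufs6b and Ndufb4c are annotated as processed pseudogenes, so their counts may be shared with near-identical genes and are uncertain. The per-length value of Ndufb2 rests on a longest transcript of 4371 nt, but its level before division by length was also low, at a mean of 7.76 CPM. It shares 145 exon bases with Gm42420 on the same strand, so its counts are uncertain too. Exons of 30 members overlap another annotated gene. In 2 of them (Ndufa13 and Ndufb6) a single gene covers at least 20% of the exon bases, on the opposite strand. The largest overlaps on the same strand were in Ndufb9 (19.5%, with Gm49356) and Atp5o (12.3%, with another entry of its symbol). Atp5o also shares up to 18.05% with a gene on the opposite strand. The counts of these members are uncertain, and no source used here says whether counting used strand.

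Cox6b2, which encodes the testis form of complex IV subunit 6B, had the largest change of any member and was the only one lower with tamoxifen in both sexes. In CPM scaled by edgeR's trimmed mean of M values (TMM), the lowest, median and highest library had 0.196, 0.700 and 3.22 CPM in tamoxifen females, against 1.34, 2.83 and 4.10 CPM in vehicle females. In males they had 0.267, 0.768 and 3.29 CPM with tamoxifen, against 1.49, 3.35 and 6.45 CPM with vehicle. Most tamoxifen libraries lay below every vehicle library of the same sex, and the groups overlapped through a few high tamoxifen libraries. The log2 change was -1.77 ± 0.17 (SE) in females and -1.83 ± 0.17 in males, with adjusted p of 1.93e-14 and 6.7e-16 by edgeR's quasi-likelihood test with Benjamini-Hochberg adjustment over the 15629 genes tested. The mean was lower with tamoxifen at 12 of 12 times in each sex. The counts are small, from 3 to 60 per library in tamoxifen females and 5 to 51 in tamoxifen males, against 23 to 75 in vehicle females and 19 to 85 in vehicle males.

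The overlap of Cox6b2 came from among the 6 tamoxifen libraries that stood apart in Arntl or in Y-linked RNA, which were not picked by their Cox6b2. The 2 such female libraries had 1.49 and 3.22 CPM of Cox6b2, and the 4 such male libraries had 1.42 to 3.29 CPM. The male library at 1.42 CPM lay below every vehicle male library and so did not overlap. In the other 22 tamoxifen female libraries Cox6b2 ran from 0.196 to 1.33 CPM, below the lowest vehicle female library at 1.34 CPM. In the other 20 tamoxifen male libraries it ran from 0.267 to 1.49 CPM, and the lowest vehicle male library held 1.491 CPM. At counts this small the groups thus all but touch in both sexes (1.331 against 1.338 CPM in females). The share of all genes separated by the same omission is not given here. Without those 6 libraries the log2 change was -1.94 in females and -2.21 in males. Cox6b2 also was the only member called rhythmic in tamoxifen females, with an amplitude of 0.72 ± 0.19 (log2, mean to peak) and a peak at 8.49 h (adjusted p = 0.0152, edgeR). That call was lost without the same libraries, where the amplitude was 0.40 (adjusted p = 0.243, edgeR). The adjusted p was 0.0599 without ct 22, 0.084 without ct 58, 0.387 in the first 24 h alone and 0.0953 in the second. Cox6b1, the ubiquitous form, outweighed Cox6b2 per length by a median of 524.4-fold in tamoxifen females and 523.5-fold in tamoxifen males, against 120-fold in vehicle females and 149-fold in vehicle males.

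**Figure D1:**
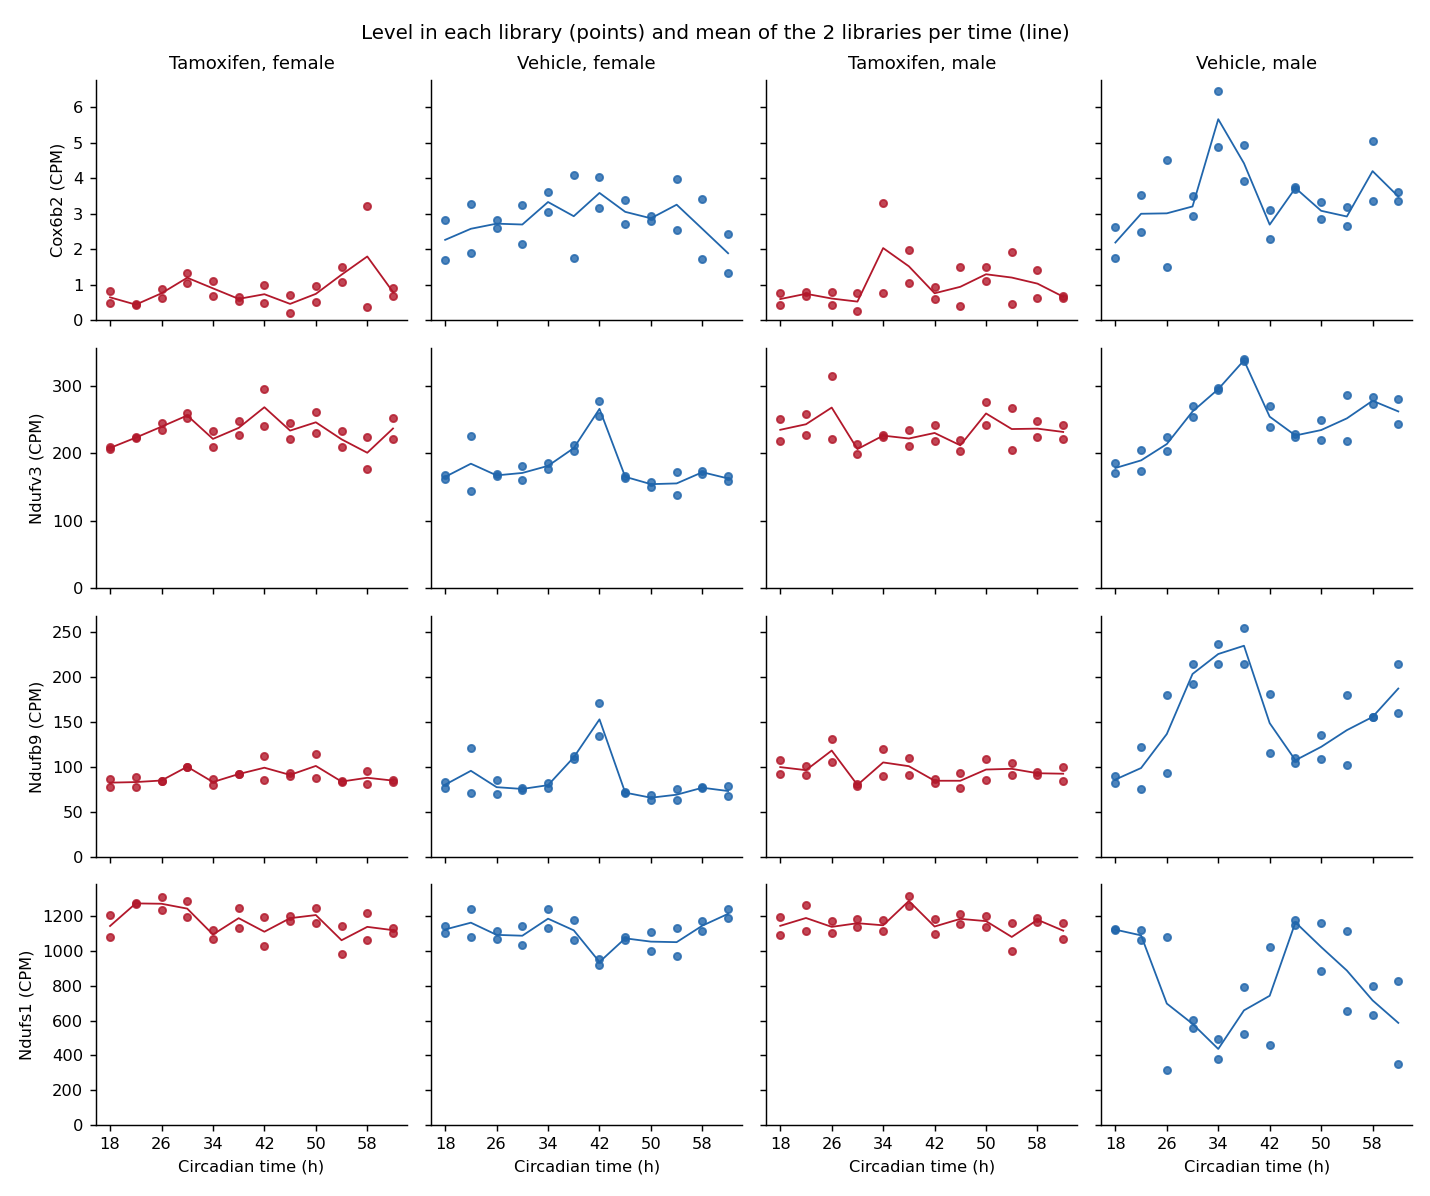
CPM scaled by TMM of Cox6b2, Ndufv3, Ndufb9 and Ndufs1 in every library (points) by circadian time in h, with the mean of the 2 libraries per time (line), in tamoxifen females, vehicle females, tamoxifen males and vehicle males. Cox6b2 was lower with tamoxifen at all 12 times in both sexes, vehicle females had high Ndufb9 at ct 42, and Ndufs1 was as low as 313 CPM in 1 vehicle male library.

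In females, 31 of the 87 members were higher in tamoxifen hearts, 1 was lower and the others did not pass the test, while 27.5% of all genes tested were called (15.2% higher and 12.3% lower). The median log2 change was 0.12 over the members, against 0.01 over all genes tested. With scaling by library size alone 21 members were higher and 1 lower, while of all genes 1794 were higher and 2395 lower, against 2381 and 1918 with TMM. The members called higher were 13 of 37 in complex I, 1 of 4 in complex II, 5 of 9 in complex III, 4 of 19 in complex IV, 7 of 17 in complex V, and Cycs. Outside Cox6b2 the called changes ran from 0.13 to 0.38. Cycs, the electron carrier between complexes III and IV, had 453.1, 539 and 620.3 CPM in tamoxifen females, against 380.2, 476 and 653 CPM in vehicle females, with wide overlap (0.17 ± 0.05, adjusted p = 0.00667, edgeR).

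Ndufv3, an accessory subunit in the NADH-binding arm of complex I, had the largest rise among them. It had 177, 231 and 295 CPM (lowest, median and highest library) in tamoxifen females, against 138, 168 and 277 CPM in vehicle females. The ranges overlapped, but the tamoxifen mean was higher at 12 of 12 times, with a log2 change of 0.38 ± 0.05 (adjusted p = 6.83e-09, edgeR). Uqcrc2, a core protein of complex III, had 1051, 1316 and 1452 CPM in tamoxifen females, against 939.9, 1100 and 1253 CPM in vehicle females. Its change was 0.24 ± 0.07 (adjusted p = 0.00593, edgeR), at 12 of 12 times. Ndufs4, an accessory subunit needed to build the NADH-binding arm, had 193, 230.1 and 301 CPM in tamoxifen females, against 154, 189.6 and 326 CPM in vehicle females, where the highest library was above all tamoxifen ones. Its change was 0.22 ± 0.05 (adjusted p = 0.000662, edgeR). Atp5mpl, a small membrane subunit of ATP synthase, had 163, 193 and 243 CPM in tamoxifen females, against 126, 158 and 307 CPM in vehicle females, with a change of 0.22 ± 0.07 (adjusted p = 0.00889, edgeR).

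The female result rested on part of the libraries. Without the 13 libraries rich in Myl7, 6 members were higher and 3 lower, the median change was 0.06 and 21.8% of all genes were called. With the first 24 h alone 6 members were called (14.7% of all genes), and with the second 24 h alone 15 were (14.2%). Leaving out single times gave 16 to 45, with 16 without ct 62 and 19 each without ct 46 and ct 50. Ndufv3 (0.31), Uqcrc2 (0.23) and Ndufs4 (0.16) remained called without the Myl7-rich libraries, and Atp5mpl (0.14) did not. The summed atrial markers had medians of 126.5 CPM in tamoxifen females and 210.4 CPM in vehicle females, and their part in the result was not tested.

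**Figure D2:**
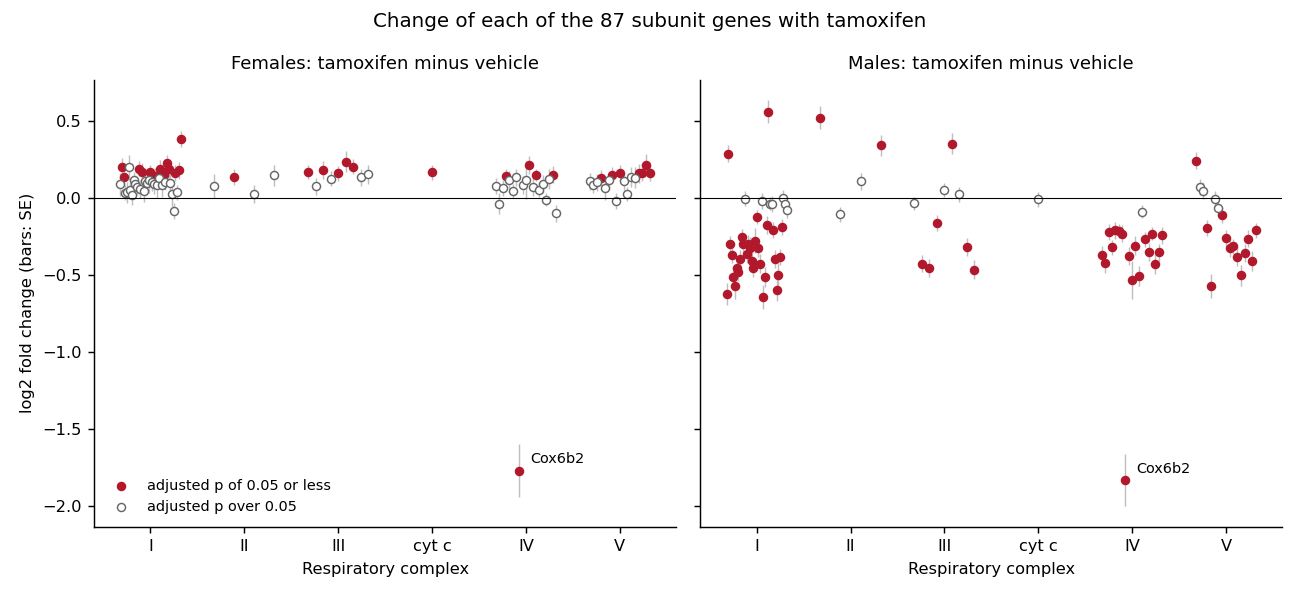
Log2 fold change with tamoxifen of each of the 87 members by complex, in females (left) and males (right), with SE bars; filled points passed an adjusted p of 0.05. Most female values lay just above 0, most male values below it, and Cox6b2 was lowest in both.

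In males, tamoxifen hearts had less of most subunit transcripts and more of a few. Of the 87 members 6 were higher (Ndufs1, Sdha, Uqcrc2, Sdhd, Ndufa10 and Atp5a1) and 63 lower. Of all genes tested 70.0% were called, 32.2% higher and 37.8% lower. The median log2 change was -0.30 over the members and -0.05 over all genes. With scaling by library size alone, 6 members were higher and 74 lower, all genes had a median of -0.14, and 3825 were called higher and 7575 lower. Lower members numbered 28 of 37 in complex I, 0 of 4 in complex II, 5 of 9 in complex III, 18 of 19 in complex IV and 12 of 17 in complex V.

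Ndufs1, the large iron-sulphur core subunit of complex I, had 1002, 1165 and 1317 CPM in tamoxifen males, against 313, 812 and 1181 CPM in vehicle males. Vehicle male libraries spread widely and reached the tamoxifen range at their top, and the change was 0.56 ± 0.08 (adjusted p = 7.03e-10, edgeR, 12 of 12 times). Sdha, the flavoprotein of complex II, had 1796, 2051 and 2350 CPM in tamoxifen males, against 564, 1537 and 2035 CPM in vehicle males, with a change of 0.52 ± 0.08 (adjusted p = 6.33e-09, edgeR). Uqcrc2 had 1084, 1319 and 1454 CPM in tamoxifen males, against 433.6, 1127 and 1372 CPM in vehicle males, with a change of 0.35 ± 0.07 (adjusted p = 5.57e-06, edgeR). Sdhd, a membrane anchor of complex II, had 483, 546 and 627 CPM in tamoxifen males, against 178, 495 and 580.7 CPM in vehicle males, with a change of 0.34 ± 0.07 (adjusted p = 7.48e-06, edgeR).

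Low values of these 4 genes in vehicle males came from the 10 libraries rich in TEC counts. Ndufs1 ran from 313 to 658 CPM in those 10 libraries and from 793 to 1181 CPM in the other 14 vehicle male libraries. Sdha ran from 564 to 1188 CPM in the 10 and from 1529 to 2035 CPM in the 14. Uqcrc2 ran from 433.6 to 961 CPM in the 10 and from 1107 to 1372 CPM in the 14, and Sdhd from 178 to 433.2 CPM and from 440.0 to 580.7 CPM. The libraries did not overlap in any of the 4. These 4 genes were picked for their change against the same vehicle male libraries. The share of all genes separated in this way is not given here. Without the 10 libraries the change was 0.24 for Ndufs1, 0.19 for Sdha, 0.07 for Uqcrc2 and 0.05 for Sdhd, and Uqcrc2 and Sdhd were no longer called. The count of members was then 2 higher and 71 lower, while 42.2% of all genes were called. What sets the 10 libraries apart was not tested.

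Among the lower members, Ndufb9, a complex I accessory subunit of the LYR family, had 76.2, 91.6 and 131 CPM in tamoxifen males, against 74.9, 155 and 255 CPM in vehicle males. The upper part of the vehicle libraries lay above every tamoxifen library, and the change was -0.64 ± 0.08 (adjusted p = 4.22e-11, edgeR, 11 of 12 times). Ndufa1, an accessory subunit encoded on chromosome X, had 108, 133 and 174 CPM in tamoxifen males, against 115, 231 and 335 CPM in vehicle males, with a change of -0.62 ± 0.07 (adjusted p = 8.12e-12, edgeR). Ndufs6, an accessory subunit of the NADH-binding arm, had 166, 203 and 277 CPM in tamoxifen males, against 179, 353 and 484 CPM in vehicle males, with a change of -0.59 ± 0.07 (adjusted p = 2.01e-11, edgeR). Without the 10 TEC-rich vehicle libraries these changes were -0.41, -0.43 and -0.45, still called. Of the members with an E-box in the promoter, Atp5g3 changed by 0.16 in females and -0.26 in males (log2, both called), and Atp5l by 0.16 and -0.36 (both called). Atp5g1 was called in females (0.15) and not in males (-0.07), Ndufa7 in males (-0.25, and 0.06 after the length and GC correction, both called) and not in females (0.09), and Ndufv1 in neither (0.04 and 0.00).

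The direction in males followed transcript length. All 52 members under 1000 nt were called lower, with a median of -0.37. Of the 25 members of 1000 to 2000 nt, 2 were higher and 9 lower, with a median of -0.04, and of the 10 of at least 2000 nt, 4 were higher and 2 lower, with a median of 0.05. Other genes did likewise: of the 1577 other tested genes under 1000 nt, 182 were higher and 926 lower (median -0.27), and the 10734 others of at least 2000 nt had a median of 0.01. When each library was corrected for length and GC content of transcripts, 17 members were higher and 44 lower, with a median of -0.07, while 70.9% of all genes were called. In females the same correction gave 35 higher and 4 lower, with a median of 0.06, and the share of all genes then called is not given here.

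**Figure D3:**
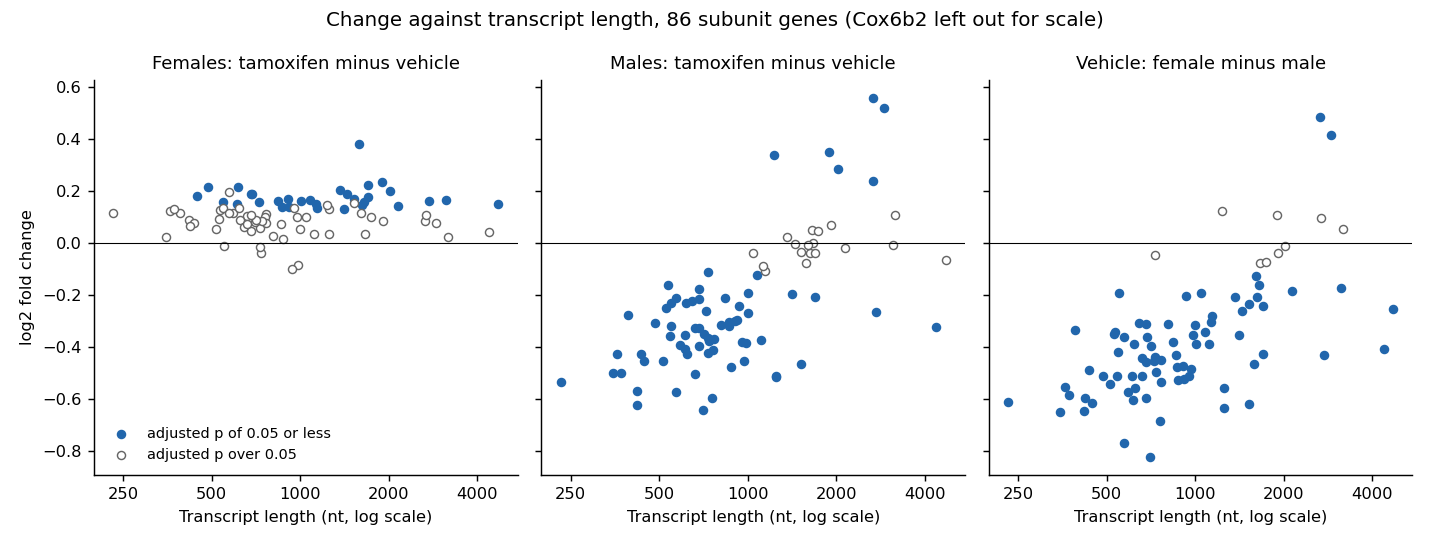
Log2 fold change of 86 members (Cox6b2 left out for scale) against transcript length in nt on a log axis, for tamoxifen minus vehicle in females and in males and for female minus male in vehicle hearts; filled points passed an adjusted p of 0.05. In males with tamoxifen the members under 1000 nt were all below 0, and the highest points were the long Ndufs1 and Sdha.

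The tamoxifen effect differed between the sexes for most members. This cannot be told apart from whatever follows the title numbers, which separate vehicle males from vehicle females. The difference, the female change minus the male change, was called for 72 of 87, of which 70 were higher and 2 lower, against 52.3% of all genes tested (27.0% higher and 25.4% lower). With the length and GC correction 50 were higher and 5 lower, and with scaling by library size alone 75 and 2, against 5157 and 3235 of all genes. The share of all genes called with the correction is not given here. The difference was 0.77 ± 0.12 for Ndufa2, a complex I accessory subunit (adjusted p = 3.31e-07, edgeR), 0.72 ± 0.11 for Ndufb9, 0.71 ± 0.10 for Ndufa1 and 0.69 ± 0.10 for Ndufs6, and -0.48 ± 0.11 for Ndufs1 and -0.44 ± 0.11 for Sdha. Without the 10 TEC-rich libraries it was -0.16 for Ndufs1, still called, and -0.12 for Sdha, no longer called (adjusted p = 0.0642, edgeR). Ndufa2 was not called in females (0.20 ± 0.08) and was lower in males (-0.57 ± 0.08). Between the separate tests, which share no library, 17 members were higher in females and lower in males, 2 were higher in both (Ndufa10, a complex I accessory subunit, and Uqcrc2), and Cox6b2 was lower in both. The shares of all genes with these pairs of calls are not given here, so the counts are descriptions only.

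Sex differences were called in vehicle hearts and not in tamoxifen hearts, and the interaction is also the test of that contrast. Female minus male, 2 members were higher and 75 lower in vehicle hearts, while 68.3% of all genes were called (31.8% higher and 36.5% lower), and the median was -0.40 against -0.03 over all genes. In tamoxifen hearts 0 of 87 were called by edgeR and by DESeq2, with 0 at an unadjusted p under 0.05 by either tool, while 7.68% of all genes were called (4.08% higher and 3.6% lower). The sex test in vehicle hearts and the tamoxifen test in males share the 24 vehicle male libraries, so their values are given side by side only. Ndufb9 had 62.5, 76.5 and 171 CPM in vehicle females, against 74.9, 155 and 255 CPM in vehicle males. It had 77.5, 86.7 and 114 CPM in tamoxifen females, against 76.2, 91.6 and 131 CPM in tamoxifen males. Its sex difference was -0.82 ± 0.08 in vehicle hearts (adjusted p = 1.18e-14, edgeR) and -0.10 ± 0.08 in tamoxifen hearts (adjusted p = 0.538).

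Ndufa2 followed the same pattern, with 89.4, 117 and 261 CPM in vehicle females, against 111, 239 and 342 CPM in vehicle males (-0.77 ± 0.08, adjusted p = 7.88e-13, edgeR). Its tamoxifen libraries had 108, 143 and 193 CPM in females, against 110.4, 137 and 212 CPM in males, a difference of 0.00 ± 0.08. Ndufs6 and the uncertain Ndufs6b were next lowest in vehicle females, at -0.68 ± 0.07 and -0.65 ± 0.08. The 2 higher in vehicle females were Ndufs1 (0.48 ± 0.08) and Sdha (0.42 ± 0.08), which became 0.18 and 0.10 without the 10 TEC-rich libraries. As in the male comparison, all 50 called members under 1000 nt were lower, the 1577 other short genes had a median of -0.31, and after the length and GC correction 7 members were higher and 61 lower, with a median of -0.14. The share of all genes called after that correction is not given here. In all but 3 members, Sdhc, Atp5b and Atp5c1, at least 1 of the tests of means or rhythms was passed. The share of all genes that passed at least 1 is not given here. No member's libraries were separated without overlap in any of these 4 comparisons, and of all genes 3, 5, 9 and 17 were (tamoxifen in females and in males, and sex in tamoxifen and in vehicle hearts), or 0.109% at most.

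Rhythms of 24 h were called for most members in vehicle hearts and for 1 in tamoxifen hearts. Rhythmicity was called for 1 of 87 members in tamoxifen females (17.1% of all genes tested) and for 0 in tamoxifen males (8.03%), against 69 in vehicle females (34.5%) and 66 in vehicle males (55.2%). In tamoxifen males 0 passed an unadjusted p under 0.05 by edgeR, and DESeq2 called 0. Fitted peaks of the 69 called members fell between 15.5 and 17.4 h in vehicle females, where no member was called without ct 42. In vehicle males 61 peaked between 9.74 and 11.3 h, and 5 peaked between 22.1 and 22.5 h: Ndufs1, Sdha, Sdhd, Uqcrc2 and Atp5a1. Ndufs1, Sdha, Sdhd and Uqcrc2 were low in the TEC-rich vehicle male libraries, which lay unevenly over the day. Their peaks without those libraries are not given here, so a rhythm of these genes cannot be told apart from the placing of those libraries. In 57 members both vehicle sexes were called, and the share of all genes called in both is not given here. Amplitudes of called members ran from 0.15 to 0.34 in vehicle females and from 0.12 to 0.58 in vehicle males.

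**Figure D4:**
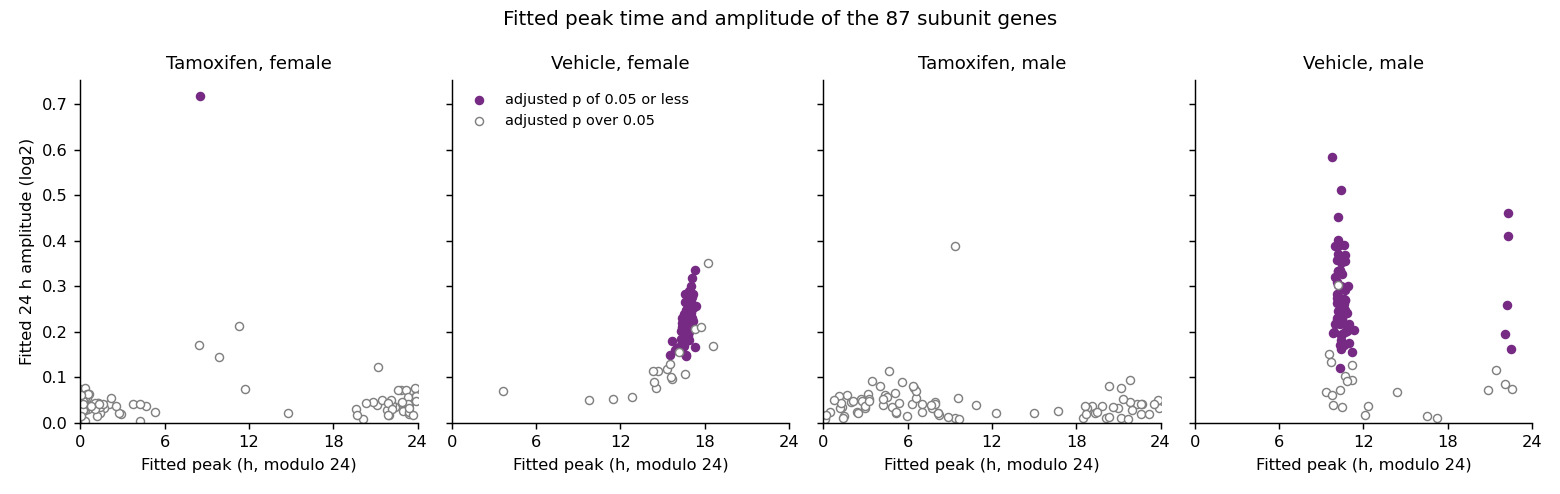
Fitted peak time in h (modulo 24) against fitted 24 h amplitude (log2) of the 87 members in the 4 groups; filled points passed an adjusted p of 0.05. Called members of vehicle females cluster near 16.8 h, those of vehicle males near 10.4 h with 5 near 22.3 h, and tamoxifen hearts have the single called member Cox6b2.

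The largest amplitudes in vehicle females were those of Ndufa2 (0.34 ± 0.08, peak 17.3 h, adjusted p = 0.00314), Ndufb9 (0.32 ± 0.08, 17.1 h), Atp5e, the epsilon subunit of ATP synthase (0.30 ± 0.08), and Ndufc1, a complex I accessory subunit (0.29 ± 0.07, 16.9 h), by edgeR. In vehicle males they were those of the uncertain Cox6c2 (0.58 ± 0.12, 9.74 h, adjusted p = 0.000137), Ndufb9 (0.51 ± 0.08, 10.4 h), Ndufs1 (0.46 ± 0.08, 22.3 h) and Ndufa2 (0.45 ± 0.08, 10.2 h). In vehicle females, Ndufb9 stood at 171 and 134 CPM at ct 42 and at 62.5 to 121 CPM in the libraries of the other times. In vehicle males it stood at 214 and 255 CPM at ct 38, and at 89.9 and 81.4 CPM at ct 18. The same gene had fitted amplitudes of 0.03 ± 0.08 in each tamoxifen group.

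The calls came from different cycles in the 2 sexes. With the first 24 h alone (ct 18 to ct 38), 0 members were rhythmic in vehicle females by edgeR and 74 in vehicle males, and with the second 24 h (ct 42 to ct 62) 73 and 7. Of all genes 8.0% and 58.7% were called in the first 24 h and 24.9% and 25.1% in the second. Without ct 42 no member was called in vehicle females, where 23.8% of all genes still were. Over the members the median deviation from the mean of all libraries was 0.43 (log2) at ct 42 in vehicle females and -0.43 at ct 50, and in vehicle males 0.66 at ct 38 and -0.15 at ct 18. Other genes under 1000 nt moved at the same times, with 0.29 and -0.20 in vehicle females and 0.40 and -0.11 in vehicle males. At ct 18, 24 h before ct 42, the members stood at -0.21 in vehicle females, so the high time did not recur. After the length and GC correction 31 members were called in vehicle females, against 32.8% of all genes, and 43 in vehicle males, against 54.6%, and the median amplitude was 0.08 in vehicle females, against 0.21 before it, and 0.09 in vehicle males, against 0.23. Without the 10 TEC-rich libraries 28 were called in vehicle males, and the share of all genes in that fit is not given here. Those libraries lay at ct 26 (1), ct 30 (2), ct 34 (2), ct 38, ct 42, ct 54, ct 58 and ct 62 (1 each).

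**Figure D5:**
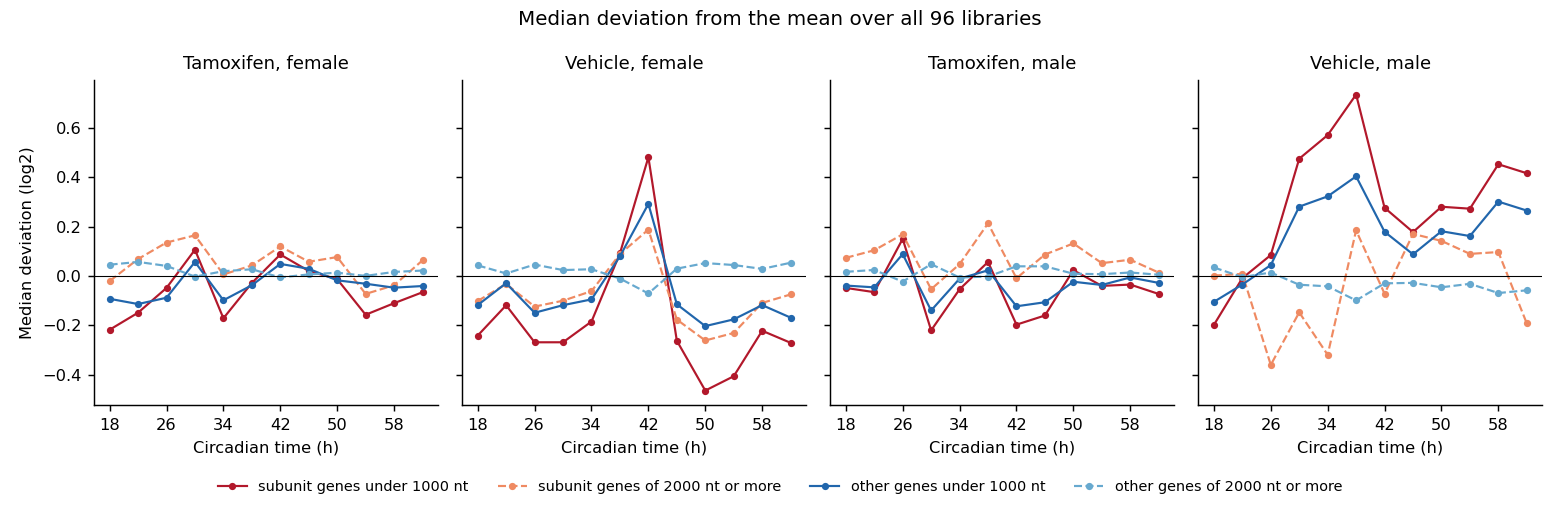
Median deviation (log2) from each gene's mean over all 96 libraries by circadian time in h, for members under 1000 nt and of at least 2000 nt and for other tested genes of the same lengths, in the 4 groups. In vehicle females short members rise to 0.48 at ct 42 and in vehicle males to 0.74 at ct 38, and other short genes move in parallel at a smaller size.

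Whether rhythms differed was tested directly. Between tamoxifen and vehicle, 0 of 87 rhythms differed in females by edgeR and by DESeq2, while edgeR called 0.237% of all genes. An unadjusted p under 0.05 was reached by 66 members and by 15.4% of all genes (edgeR). Without the Myl7-rich libraries 46 members were called, against 4.21% of all genes. In males 39 differed, against 20.7% of all genes, with the largest difference vectors in Cox6c2 (0.57 ± 0.17, adjusted p = 0.0336), Ndufb9 (0.51 ± 0.11), Ndufs1 (0.46 ± 0.11) and the uncertain Ndufb2, a complex I accessory subunit (0.45 ± 0.10). That count was 2 without the 10 TEC-rich libraries, 63 in the first 24 h and 0 in the second, and it ran from 13 to 47 over the omissions of single times, with 19, 25, 13, 18 and 23 without ct 22, ct 30, ct 34, ct 38 and ct 50. The shares of all genes in these fits are not given here, so the counts are descriptions only. Between the sexes 67 rhythms differed in vehicle hearts (37.4% of all genes), and 0 in tamoxifen hearts by edgeR and DESeq2 (0.0384%, with 1 at an unadjusted p under 0.05). The vectors were 0.85 ± 0.17 for Cox6c2, 0.65 ± 0.11 for Ndufb9, 0.64 ± 0.12 for Ndufa2 and 0.55 ± 0.10 for Ndufa1 between vehicle females and vehicle males.

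Complex IV holds paired subunits with a muscle or tissue-restricted form, and their balance was compared as a ratio of levels per length within each library. The muscle form Cox7a1 stood over the ubiquitous Cox7a2 by a median of 1.52-fold in tamoxifen females (lowest 1.201, highest 1.91) and 1.59-fold in tamoxifen males (1.40 to 1.89), against 1.38-fold in vehicle females (1.30 to 1.502) and 1.39-fold in vehicle males (1.21 to 1.69). The ranges overlapped. As single genes, Cox7a1 was higher with tamoxifen in females (0.21 ± 0.06, adjusted p = 0.00418, edgeR) and Cox7a2 was not called (0.07 ± 0.06), and in males both were lower (-0.31 ± 0.06 and -0.50 ± 0.06). The muscle form Cox8b stood over Cox8a by 3.92-fold in tamoxifen females and 3.88-fold in tamoxifen males, against 3.48-fold in vehicle females and 4.47-fold in vehicle males. Cox6a2 stood over Cox6a1 by 9.58- and 9.85-fold with tamoxifen, against 10.01- and 9.59-fold with vehicle (females, then males). Cox4i1 exceeded Cox4i2, the form of low-oxygen tissues, by 107- to 121-fold over the 4 groups, and Ndufa4 exceeded Ndufa4l2, a hypoxia-induced paralogue, by 55.7- to 67.4-fold. These ratios are descriptions and were not tested.

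Other genes of the pathway were counted by lists, beside 27.5% of all genes tested called in females (15.2% higher, 12.3% lower) and 70.0% in males (32.2% higher, 37.8% lower). All list counts and changes come from the fit to all libraries, without the length and GC correction. The TEC-rich and Myl7-rich libraries, which moved the member results, were kept, and no list result without them is given here. The factors that assemble complexes II, III and V were higher for 9 of 13 in females, with 0 lower, and for 9 of 13 in males, with 2 lower. Sdhaf4, an assembly factor of complex II, had 37.9, 45.9 and 59.6 CPM in tamoxifen females, against 28.6, 35.4 and 54.4 CPM in vehicle females (0.32 ± 0.05). Atpaf1, a chaperone of the ATP synthase head, was 0.28 ± 0.09 higher in females and 0.74 ± 0.09 in males. Of the complex IV assembly factors, 10 of 21 were higher in females with 0 lower, and 10 were higher and 6 lower in males. Taco1, an activator of mitochondrial translation of a complex IV subunit, had 55.0, 69.6 and 78.4 CPM in tamoxifen females, against 19.9, 54.5 and 66.3 CPM in vehicle females (0.40 ± 0.13), and 51.8, 75.7 and 91.8 CPM in tamoxifen males, against 6.36, 22.7 and 61.5 CPM in vehicle males (1.34 ± 0.13). Cox19, a copper chaperone factor, was 0.45 ± 0.04 higher in females.

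Of the complex I assembly factors, 5 of 17 were higher in females and 7 were higher and 4 lower in males, with Acad9 at 0.74 ± 0.08 in males. The coenzyme Q list had 8 of 13 higher and 2 lower in females and in males 9 higher and 3 lower. Coq8a, a kinase-like protein of coenzyme Q synthesis, had 671, 856 and 929 CPM in tamoxifen females, against 515, 631 and 744 CPM in vehicle females (0.43 ± 0.06), and was 0.69 ± 0.06 higher in males. Coq10b, a coenzyme Q binding protein, was lower in both (-0.57 ± 0.10 and -0.34 ± 0.10) and was rhythmic in all 4 groups. Its amplitude was 0.40 in tamoxifen females and 0.42 in tamoxifen males, against 0.77 in vehicle females and 0.57 in vehicle males, with peaks between 11.5 and 13.2 h.

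Of the list of haem attachment and cristae genes, 6 of 10 were higher in females with 0 lower, and 5 were higher and 3 lower in males. Of the ATP and ADP carriers and the ATP synthase inhibitor, 2 of 9 were higher in females with 0 lower, and 2 were higher and 1 lower in males. Of 16 transcriptional regulators, 2 were higher (Tfam, a mitochondrial transcription factor, 0.18 ± 0.06, and Polrmt, the mitochondrial RNA polymerase, 0.15 ± 0.04) and 3 lower in females, among them Ppargc1a (-0.21 ± 0.07) and Esrrb (-0.26 ± 0.07). In males 13 were higher and 1 lower, led by the nuclear receptors Ppara (1.03 ± 0.13) and Esrrg (0.60 ± 0.08), with Ppargc1b lower (-0.24 ± 0.08). Ppara had 18.1, 41.5 and 59.9 CPM in tamoxifen males, against 10.5, 16.9 and 45.8 CPM in vehicle males. Of the 13 mitochondrially encoded subunits, 0 were higher and 1 lower in females (mt-Atp8, -1.39 ± 0.45), and 3 were higher and 5 lower in males. The counts of mt-Atp8 were as low as 1 per library, and its gene overlaps mt-Atp6.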

How the data were processed

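RNA from ventricle was extracted with RNeasy, and poly-A selected libraries (Illumina mRNA Prep) were sequenced on a NovaSeq instrument, per the labels' protocols. The submitters' processing notes name HISAT2, Picard, HTSeq and builds GRCm38 and mm10, and no version, role or strand setting was given in what was used here. The authors deposited raw counts per gene for 96 libraries, and all 96 columns were mapped to samples by title. Genes were tested with edgeR 4.0.16 (R 4.3.3): TMM scaling, filterByExpr with a minimum count of 10, 15629 genes, and 1 fit to all libraries with a mean, cosine and sine of 24 h for each of 4 groups (84 residual degrees of freedom). The quasi-likelihood test was adjusted by Benjamini-Hochberg and called at 0.05. DESeq2 1.42.0 was an alternative. Length and GC were corrected by per-library loess offsets (span 0.4) on GENCODE M21. Error terms are SE. Members were named where their log2 change was among the 4 highest or 4 lowest called, or their amplitude among the 4 largest; pathway lists gave the 2 highest and 2 lowest and isoform pairs were fixed. Members with an E-box, those at the ends of the range of levels, and Cycs and Ndufa10 were named after their values were seen. The members and lists were chosen with earlier results of these data known. The scripts' tests were tested on simulated data.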

Additional observations from a re-analysis of the deposited data

Results flagged for a closer look

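The tamoxifen effect differed between females and males for 72 of 87 members by a test of the difference itself (edgeR; DESeq2 gave 72), and 52.3% of all genes tested did. The female change minus the male change was 0.77 for Ndufa2, 0.72 for Ndufb9, 0.71 for Ndufa1, 0.69 for Ndufs6, -0.48 for Ndufs1 and -0.44 for Sdha. With the length and GC correction 55 members were called, 50 higher and 5 lower, and the share of all genes is not given here. Without the 10 vehicle male libraries rich in TEC counts, Ndufs1 was -0.16, still called, and Sdha -0.12, no longer called. What sets those libraries apart was not tested. The interaction includes the vehicle groups of both sexes, so it cannot be told apart from whatever follows the title numbers.

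The rhythms of vehicle females and vehicle males differed for 67 members (37.4% of all genes tested), by a test of the difference. The difference vector was 0.85 for Cox6c2, 0.65 for Ndufb9, 0.64 for Ndufa2 and 0.55 for Ndufa1 (log2). With the length and GC correction 35 were called, and the share of all genes is not given here. Sex in vehicle hearts cannot be told apart from whatever follows the title numbers.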

How the results depend on the processing

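Of the values, under an alternative, for genes taken by the naming rule, 1015 kept their direction and side of the threshold and 53 kept the direction only, and none of these reversed. Among all members, the length and GC correction turned the sign of called changes: in tamoxifen males 5 of the 54 called both ways, Ndufa7, Uqcrb, Cox6a1, Cox8a and Atp5g2, were lower without it and higher with it, and Cox8a turned in the sex difference of vehicle hearts (-0.19 without it, 0.20 with it) and in the interaction (0.22 and -0.16). Of the counts, 271 stayed within 1.5 times and 41 did not. Members called with tamoxifen in females (32) were 9 without the Myl7-rich libraries, 6 in the first 24 h and 15 in the second, and library size scaling gave 21 higher and 1 lower. Sex in tamoxifen hearts (0) gave 1 with the length and GC correction and 1 without the TEC-rich libraries. Rhythms in tamoxifen females (1) were 2 with library size scaling, DESeq2 size factors, a mean of 1 CPM as filter, DESeq2, the length and GC correction or without the TEC-rich libraries, and 0 in the second 24 h or without the 6 libraries set aside for Arntl or Y-linked RNA. Rhythms in vehicle females (69) were 31 with the correction and 0 in the first 24 h, and in vehicle males (66) 43 with the correction, 7 in the second 24 h and 28 without the TEC-rich libraries. Rhythm differences with tamoxifen in females (0) were 1 without the TEC-rich and 46 without the Myl7-rich libraries. In males (39) they were 25 with a count above 0 in at least 25 libraries as the filter, 18 with the correction, 63 in the first 24 h, 0 in the second and 2 without the TEC-rich libraries. Rhythm differences between vehicle sexes (67) were 35 with the correction. Leaving out single times gave 16 to 45 for tamoxifen in females, 67 to 72 in males, 0 to 0 for sex in tamoxifen hearts, 76 to 79 in vehicle hearts, 68 to 75 for the interaction, 0 to 2, 0 to 0, 0 to 73 and 59 to 68 for rhythms (tamoxifen females, tamoxifen males, vehicle females, vehicle males), and 0 to 0, 13 to 47, 0 to 0 and 53 to 79 for rhythm differences (tamoxifen in females, in males, sex in tamoxifen and in vehicle hearts). The causes were not tested, and counts given without a share of all genes are descriptions only. The fit with no filter could not be made, and the filter of 25 libraries, chosen after seeing the data, took its place. No paired analysis was possible because the groups share no replicate numbers.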
